A study of Mus musculus with 6 samples.

Results

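Tyrobp, Fcer1g, Hcst, the Fc gamma receptor genes Fcgr1, Fcgr2b, Fcgr3 and Fcgr4 and the kinase gene Syk are 8 of 18193 named genes on an Affymetrix mouse array, which read them with 16 of the 45037 probe sets tested. The probe sets are those that the platform annotation pairs with 1 of these symbols alone, and all 16 are accounted for here, with no filter on low values. The genes were chosen by their part in 1 signalling route and by their values in the genotype comparison of these same arrays, where Tyrobp and Fcgr3 stood out. Their differences between the genotypes are therefore descriptions. The array-wide test appears for them only as a count, which supports nothing. RNA came from isolated pancreatic islets of 6 mice aged 12 weeks on standard chow, 1 array per mouse. Arrays 1 to 3 held wild-type and arrays 4 to 6 held hIAPP_Tg islets, the latter from mice that express human islet amyloid polypeptide (IAPP), the amyloid-forming hormone that beta cells release with insulin. The strain of all 6 mice was entered as FVB/N-Tg(Ins2-IAPP)RFHSoel/J, a name that puts the human gene under an insulin gene (Ins2) promoter and so in beta cells. Since the wild-type mice carry that name too, the genotype label sets the groups apart. The sources used here do not say whether the mice were littermates or of which sex, so the spread within a group is the spread between these 3 animals.

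An immunoreceptor tyrosine-based activation motif (ITAM) is a short stretch with paired tyrosines in the tail of an adaptor or receptor. When a receptor is bound, Src family kinases phosphorylate the motif, Syk docks on it, and phospholipase C, PI3 kinase and the actin machinery follow. Receptors with an inhibitory motif (ITIM) recruit phosphatases such as the products of Ptpn6 and Inpp5d, which oppose the signal. In tissue macrophages, Fc gamma receptors take up antibody-coated material through Fcer1g, while Trem2 and related receptors signal through Tyrobp.

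All values are log2 RMA values (a summary of each probe set's probes, normalized alike over the arrays), and differences are hIAPP_Tg minus wild type. A difference of 1 is a doubling of signal. The median of every array was 5.7. A probe set below it is not known to lie above background, and its difference may be compressed. Levels of different probe sets are not compared. The values carry 1 decimal, so means of 3 arrays move in steps of 0.033.

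Tyrobp, the ITAM adaptor of Trem2 and of many other myeloid and natural killer cell receptors, was higher in hIAPP_Tg islets. Its single probe set, 1450792_at, read 7.3, 7.2 and 7.2 in wild-type islets and 8.8, 8.5 and 8.9 in hIAPP_Tg islets. The genotypes did not overlap, and the lowest hIAPP_Tg array lay 1.27 above the wild-type mean. The group means were 7.23 ± 0.058 and 8.73 ± 0.21 (SD, n = 3 each), a difference of 1.5 (SE 0.11) or 2.83-fold. Of all probe sets tested, 21 differed upward by 1.5 or more, Tyrobp among them. Since its difference helped to choose Tyrobp, nothing is read from that count.

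Fcer1g and Hcst, the other adaptors, showed no such shift. Fcer1g encodes the common gamma chain, the ITAM partner of Fcgr1, Fcgr3 and Fcgr4 and of the IgE receptor. Its probe set 1418340_at read 8.1, 8.6 and 8.3 in wild-type and 8.5, 8.0 and 8.4 in hIAPP_Tg islets, and the genotypes overlapped over nearly their whole range. The means were 8.33 ± 0.25 and 8.30 ± 0.26 (SD, n = 3 each), a difference of -0.033 (SE 0.18). Leaving out single arrays moved it from -0.15 to 0.12, so it had no settled sign. Hcst, the gene next to Tyrobp on chromosome 7, encodes DAP10, an adaptor that binds PI3 kinase and carries no ITAM. Its probe set 1419119_at read 6.8, 6.7 and 6.6 in wild-type and 6.6, 6.8 and 6.6 in hIAPP_Tg islets. Here too the genotypes overlapped, and the difference was -0.033 (SE 0.086).

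**Figure D1:**
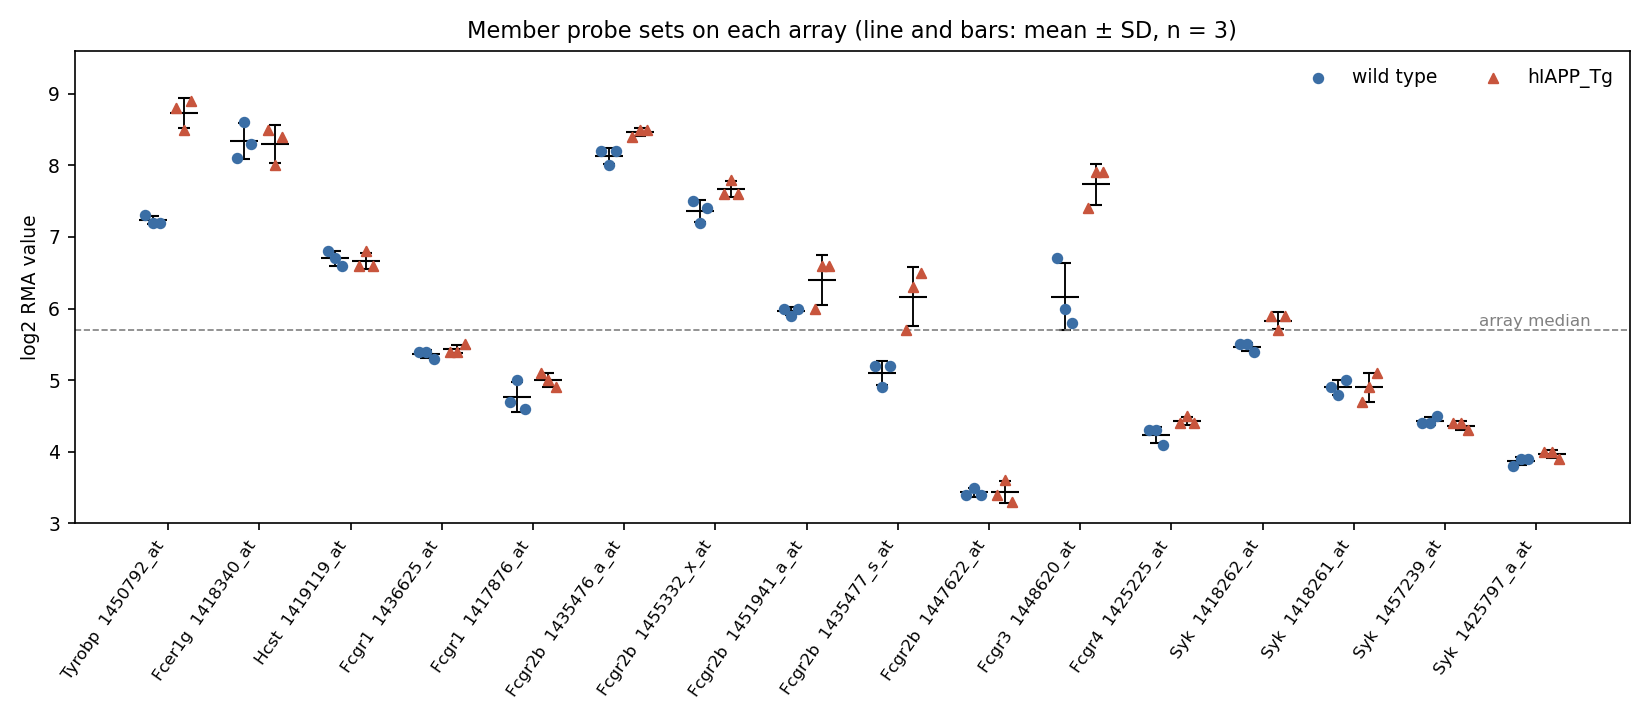
Log2 RMA value of each of the 16 probe sets on each array, with the mean ± SD of 3 arrays per genotype and the array median of 5.7 as a dashed line. Tyrobp and Fcgr3 show the widest gaps between wild type (circles) and hIAPP_Tg (triangles), while Fcer1g and Hcst overlap.

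The Fc gamma receptors share structure, and 3 of them share a place on the genome. Fcgr2b, Fcgr4 and Fcgr3 are consecutive protein-coding genes on chromosome 1, with 7 such genes between Fcgr3 and Fcer1g, while Fcgr1 lies on chromosome 3. The stretches below run from 100 bases before to 50 bases after the annotated start of the 3 receptors that need Fcer1g and of Fcer1g itself (RefSeq, GRCm38.p6, 5′ to 3′ on the gene's strand). Capitals mark GAGGAA, a 6-base form of the site known for the myeloid factor PU.1, or its reverse complement TTCCTC.
Fcgr3 (chr1:171059354-171059503, minus strand): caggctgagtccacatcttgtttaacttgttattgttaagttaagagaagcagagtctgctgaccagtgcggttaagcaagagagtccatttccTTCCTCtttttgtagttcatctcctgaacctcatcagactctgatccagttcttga
Fcgr1 (chr3:96293920-96294069, minus strand): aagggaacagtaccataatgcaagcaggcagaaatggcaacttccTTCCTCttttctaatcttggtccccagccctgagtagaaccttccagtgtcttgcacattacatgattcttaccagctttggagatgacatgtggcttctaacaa
Fcgr4 (chr1:171018826-171018975, plus strand): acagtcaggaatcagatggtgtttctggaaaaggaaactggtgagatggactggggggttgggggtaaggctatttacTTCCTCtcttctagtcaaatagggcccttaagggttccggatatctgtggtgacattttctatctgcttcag
Fcer1g (chr1:171234300-171234449, minus strand): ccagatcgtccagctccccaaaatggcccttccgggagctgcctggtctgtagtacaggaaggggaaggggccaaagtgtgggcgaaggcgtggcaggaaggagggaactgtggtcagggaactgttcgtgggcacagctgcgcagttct

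Fcgr3, Fcgr1 and Fcgr4 each held 1 match, as TTCCTC, at positions -6, -55 and -22 from the start. Fcgr3 has a further annotated start 9 bases downstream, with the same match. Fcgr1 and Fcgr3 shared the run ttccttcctctttt, of 14 bases, around it. The longest run that Fcgr4 shared with Fcgr1 or with Fcgr3 was 8 bases, and that of Fcer1g with Fcgr3 was 7. Fcer1g, Fcgr2b and Hcst held no match to this form in the stretch. The shorter GGAA within it, which occurs in the printed stretch of Fcer1g, was not counted. Of the starts annotated for Syk, 1 of 2 held a match. Among all 32851 promoter stretches of this length in the table, 15.7% held 1 or more, so the letters are common. A match does not show that a factor binds. Tyrobp was not examined here.

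Fcgr3, which encodes the low-affinity activating receptor for IgG, was higher in hIAPP_Tg islets by about as much as Tyrobp. Its single probe set 1448620_at read 6.7, 6.0 and 5.8 in wild-type and 7.4, 7.9 and 7.9 in hIAPP_Tg islets. The genotypes did not overlap, although wild-type array 1 stood apart from the other 2 wild-type arrays, at 6.7. The means were 6.17 ± 0.47 and 7.73 ± 0.29 (SD, n = 3 each), a difference of 1.57 (SE 0.26) or 2.96-fold. The wild-type SD of 0.47 was the largest within-group SD of any of the 16 probe sets. Without single arrays the difference ran from 1.38 to 1.83.

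Fcgr2b encodes the inhibitory Fc gamma receptor, the member with an ITIM in place of an activating chain, and its 5 probe sets differed among themselves. The probe set of highest mean, 1435476_a_at, read 8.2, 8.0 and 8.2 in wild-type and 8.4, 8.5 and 8.5 in hIAPP_Tg islets, a small difference of 0.33 (SE 0.078) with no overlap. The probe set 1435477_s_at read 5.2, 4.9 and 5.2 against 5.7, 6.3 and 6.5, a difference of 1.07 (SE 0.21), again with no overlap. Per the annotation, these and 1455332_x_at, which differed by 0.30 (SE 0.10), were made from the same sequence record. So 3 probe sets of 1 record gave differences from 0.30 to 1.07. Of the remaining probe sets, 1451941_a_at differed by 0.43 (SE 0.17) and overlapped on 1 hIAPP_Tg array at 6.0. The last, 1447622_at, read 3.3 to 3.6 on all 6 arrays, near the bottom of the scale, and differed by 0.

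On this platform, the endings s and x mark probe sets with probes that can also bind other transcripts. Fcgr2b and Fcgr3 have near-identical extracellular parts, and their probe sets need not separate them. On the hIAPP_Tg arrays 1435477_s_at was 0.60, 1.20 and 1.40 above its wild-type mean, and Fcgr3 was 1.23, 1.73 and 1.73 above its own, lowest on array 4 for both. On wild-type array 1, Fcgr3 was 0.53 above its mean and 1435477_s_at 0.10. How much of either signal comes from the other gene was not tested.

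Fcgr1 and Fcgr4, the high-affinity IgG receptor gene and the receptor gene for IgG2a and IgG2b complexes, lay under the array median and differed little. For Fcgr1, 1436625_at read 5.4, 5.4 and 5.3 against 5.4, 5.4 and 5.5, and 1417876_at read 4.7, 5.0 and 4.6 against 5.1, 5.0 and 4.9. Both overlapped between the genotypes, with differences of 0.067 (SE 0.063) and 0.23 (SE 0.12). Fcgr4, read by 1425225_at, was at 4.3, 4.3 and 4.1 in wild-type and at 4.4, 4.5 and 4.4 in hIAPP_Tg islets. The genotypes did not overlap, by a single rounding step, and the difference was 0.20 (SE 0.078). At these levels a change may not be detectable on the array.

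Syk, the kinase that docks on phosphorylated ITAMs, was read by 4 probe sets, of which 1 separated the genotypes. That probe set, 1418262_at, has the highest mean of the 4 and read 5.5, 5.5 and 5.4 in wild-type and 5.9, 5.7 and 5.9 in hIAPP_Tg islets. The difference was 0.37 (SE 0.078) or 1.29-fold, around the array median. The other 3 lay lower, overlapped and differed by 0, -0.067 and 0.10. With the probe sets of each gene averaged, the difference was 0.10 for Syk, 0.43 for Fcgr2b and 0.15 for Fcgr1.

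Across the 16 probe sets, 11 lay above 0, 3 below and 2 at 0, with a median difference of 0.22 against 0 over all probe sets tested. In 7 of 16 every hIAPP_Tg array lay above every wild-type array, and in 0 every one lay below. Over all probe sets, 3.44% were higher without overlap. In the array-wide limma test, 1 of the 16, Tyrobp, was among the 13 probe sets past an adjusted p of 0.05 (0.0289% of 45037). Nothing is read from these counts, since this comparison helped to choose the genes. Tyrobp was not past the threshold without any 1 of the 6 arrays, where 1 to 4 probe sets passed in all, nor with the acinar markers described below as a covariate. Its difference then stayed between 1.42 and 1.62.

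**Figure D2:**
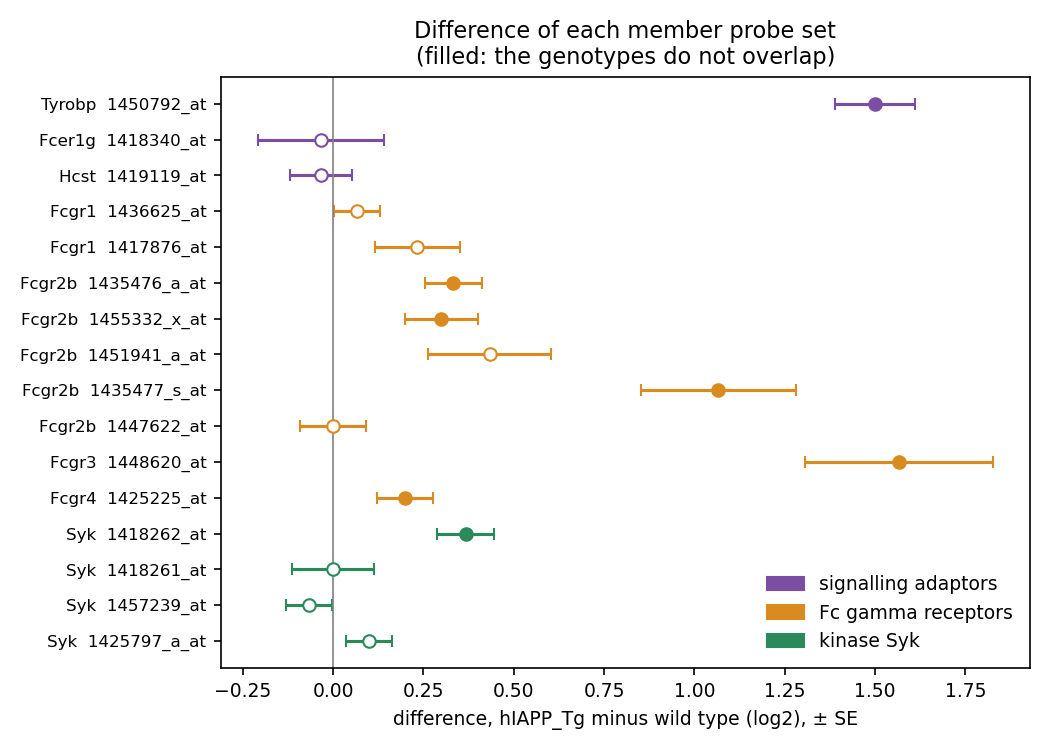
Difference between the genotypes (hIAPP_Tg minus wild type, log2) of each probe set with its SE from limma, by role. Filled points are the 7 probe sets whose genotypes do not overlap. Differences run from -0.067 to 1.57, and probe sets of Fcgr2b and of Syk disagree.

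The hIAPP_Tg arrays did not rank the members alike. Tyrobp was 1.57, 1.27 and 1.67 above its wild-type mean on arrays 4, 5 and 6, and so lowest on array 5. Fcgr3 was lowest on array 4. Fcer1g was 0.17 above its wild-type mean on array 4 and 0.33 below it on array 5, where it read 8.0, its lowest value of all 6. Array 5 also held the lowest mean of acinar markers and the highest means of neutrophil and platelet markers, whose part in these values was not tested.

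**Figure D3:**
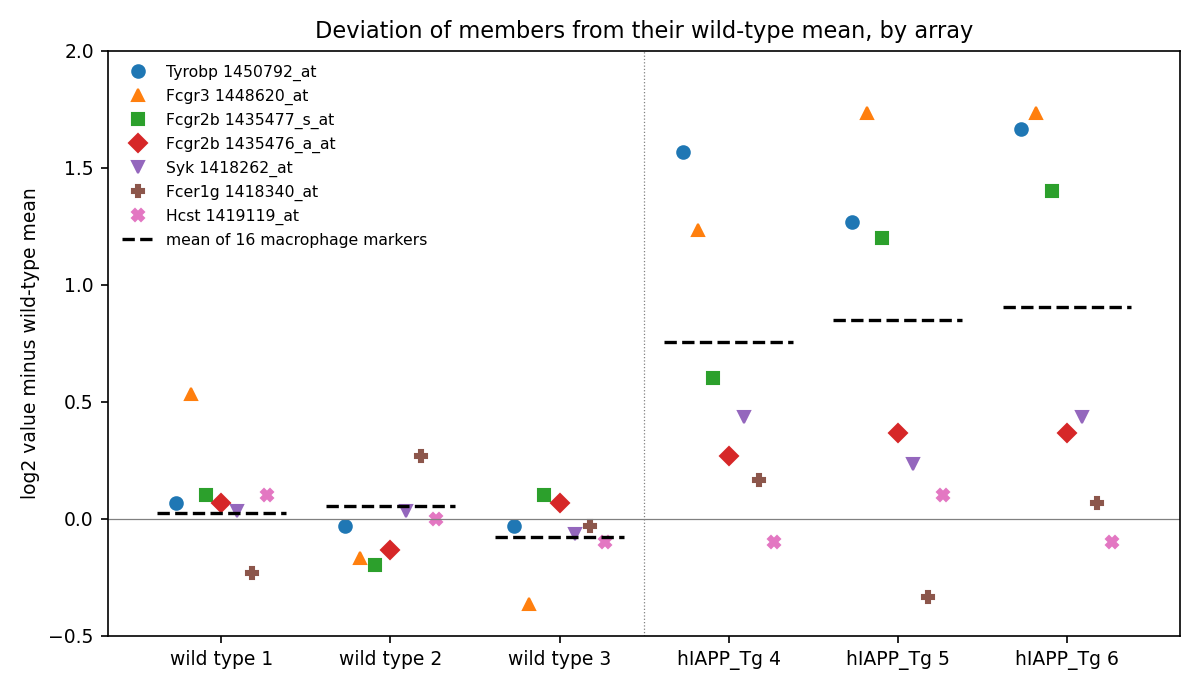
Log2 value minus the probe set's own wild-type mean, on each array, for 7 probe sets of 6 genes, with the mean of 16 macrophage markers as dashed lines. On the hIAPP_Tg arrays Tyrobp and Fcgr3 lie 1.23 to 1.73 above their wild-type means, while Fcer1g and Hcst stay around 0. Tyrobp and Fcgr3 lie above the macrophage mean on these arrays, but single macrophage markers differ by -0.13 to 2.47.

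These genes are made mainly by immune cells, and in whole islets more cells of a type and more RNA per cell cannot be told apart. The endocrine markers of islets were high in both genotypes, at a list mean of 13.54 to 13.61 in wild-type and 13.39 to 13.56 in hIAPP_Tg islets, with Ins2 at the top of the scale in both and Iapp at 14.93 and 14.97. Macrophage markers other than the members (16 measured) had list means of 6.79 to 6.93 on wild-type and 7.63 to 7.78 on hIAPP_Tg arrays. Their median difference was 0.70, and 12 of 16 were higher at an unadjusted p under 0.05 in limma (1 past the adjusted threshold). Tyrobp and Fcgr3, chosen because they stood out in this comparison, differed by more than that median and Fcer1g by less. The list itself ran from -0.13 for Mrc1 to 2.47 for Lyz2, with Mpeg1 at 1.57. In all, 14 of its genes lay above 0 and 2 below. Among its defining markers, Adgre1, a surface antigen gene of macrophages, differed by 1.13, Csf1r by 0.67 and Cd68 by 1.90. The 4 not past the unadjusted threshold were Spi1, the PU.1 gene, at 6.20 and 6.10 in wild-type and hIAPP_Tg islets, Cd14 at 6.57 and 6.63, Mrc1 at 4.63 and 4.50 and Cd163 at 3.83 and 3.97.

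The lists of natural killer, mast, T and B cells held 0 genes past an unadjusted p of 0.05 in limma, and 0 past the adjusted threshold. Natural killer cell markers (9 measured) had list means of 4.46 to 4.49 in wild-type and 4.47 to 4.51 in hIAPP_Tg islets, with 8 of 9 under the array median, Ncr1 at 4.33 and 4.47 and Klrd1 at 3.47 and 3.50. Mast cell and basophil markers (10 measured) ran from 5.23 to 5.24 and from 5.15 to 5.18, with Cpa3 at 4.20 and 4.07, Mcpt4 at 5.57 and 5.50 and Kit at 5.03 in both. Fcer1a, the IgE-binding chain that pairs with Fcer1g, lay at 3.53 and 3.47. T cell markers (8 measured) ran from 4.95 to 5.01 and from 4.91 to 5.00, with Cd3d at 5.10 and 5.07, Cd3e at 6.30 and 6.33 and Cd3g at 3.60 and 3.70. B cell and plasma cell markers (9 measured) ran from 5.72 to 5.86 and from 5.64 to 5.83, with Cd79a at 6.13 and 6.17 and Cd79b at 5.13 in both.

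Of the remaining lists, that of dendritic cells held the most genes past the unadjusted threshold, 5 of 10, and those of monocytes, neutrophils, platelets and dendritic cells held 0 past the adjusted one in limma. Monocyte markers (4 measured) ran from 5.60 to 5.73 in wild-type and from 5.53 to 5.63 in hIAPP_Tg islets, with Ccr2 at 5.80 and 5.73. Neutrophil markers (8 measured) ran from 5.06 to 5.2 and from 5.10 to 5.61, highest on hIAPP_Tg array 5. Among them 1 gene, Csf3r, was higher at an unadjusted p under 0.05 in limma. S100a8 had means of 4.47 and 5.13, and S100a9 of 4.40 and 5.03. On hIAPP_Tg arrays 4, 5 and 6 S100a8 read 4.5, 6.3 and 4.6, and S100a9 read 4.6, 6.1 and 4.4. Their higher means thus come from array 5. Platelet markers (6 measured) ran from 5.18 to 5.30 and from 5.28 to 5.78, also highest on array 5. Itga2b lay at 6.73 and 6.63 and Pf4 at 6.50 and 6.70, and Clec1b was higher at the unadjusted threshold. Ppbp lay at 3.87 and 4.37, with 3.8, 5.3 and 4.0 on hIAPP_Tg arrays 4, 5 and 6. Dendritic cell markers (10 measured) had a median difference of -0.17. Their lineage genes Flt3, at 5.27, and Zbtb46, at 5.97, had equal means in both genotypes, and Itgax was higher by 0.47. The 4 genes lower at an unadjusted p under 0.05 were H2-Ab1, H2-Aa, H2-Eb1 and Cd74, all of antigen presentation by class II molecules.

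Acinar markers (11 measured), which report exocrine tissue carried along with islets, had list means of 10.88, 12.16 and 12.41 in wild-type and 11.88, 9.75 and 11.12 in hIAPP_Tg islets. Cela1 lay at 12.87 and 11.83, and Cela2a at 12.80 and 11.60. With that mean as a covariate the differences were 1.57 for Tyrobp, 1.26 for Fcgr3 and 0.18 for Fcer1g. Beyond this covariate, the part of these cell types in the members' values was not tested.

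**Figure D4:**
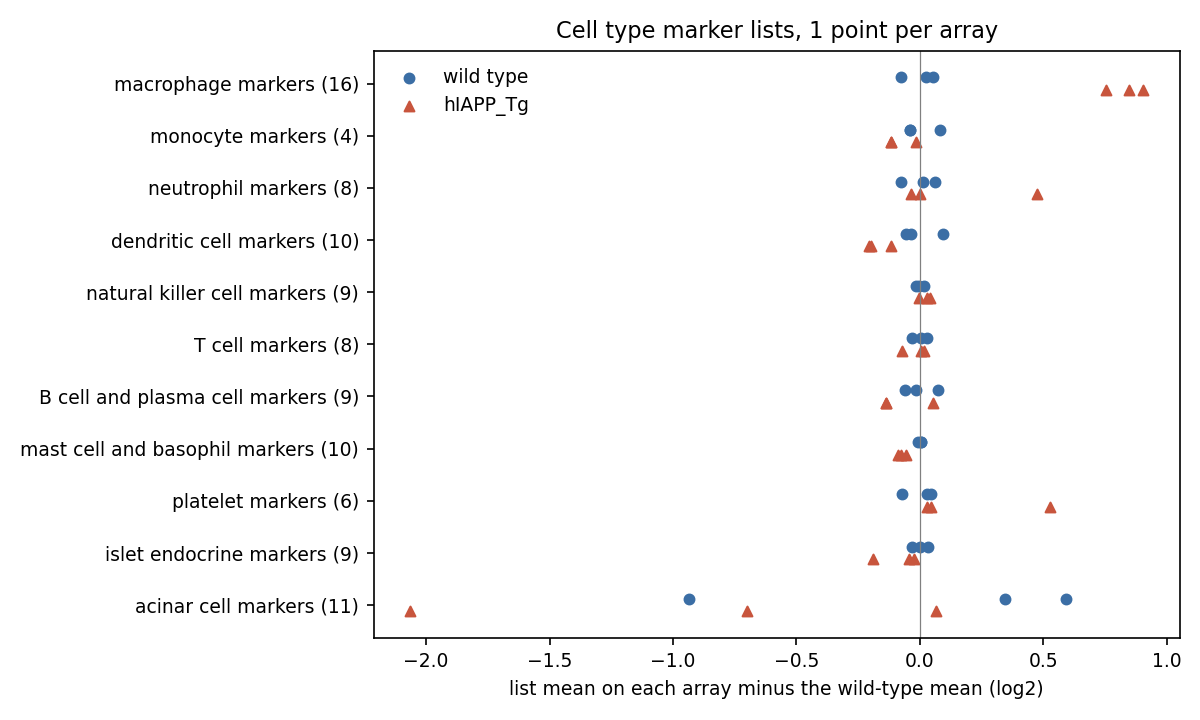
Mean of each cell type marker list on each array, minus its wild-type mean (log2). Numbers in brackets are genes measured. Macrophage markers separate the genotypes by 0.84 on average, and acinar markers vary most within each genotype.

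The genes most like Tyrobp over the 6 arrays were Mpeg1, a pore-forming protein of phagocytes, the long non-coding RNA Snhg18, the semaphorin gene Sema5a, the lysozyme genes Lyz2 and Lyz1, the membrane protein gene Ms4a7, the phospholipase gene Pla2g7 and Aass, an enzyme of lysine breakdown. Pearson's r with Tyrobp ran from 0.981 for Aass to 0.996 for Mpeg1, over 464 genes that spanned at least 1 on the log2 scale. The 6 arrays form 2 clusters by genotype for these genes, so r mostly repeats the gap between genotypes and is a description only. Lyz1 and Lyz2 are near-identical copies, and their probe sets need not separate them. Mpeg1 read 7.4, 7.3 and 7.4 against 9.0, 8.8 and 9.0, and like Tyrobp was lowest among hIAPP_Tg islets on array 5.

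Further genes of the pathway were counted from 6 lists with 122 measured genes and without the members, by the probe set of highest mean per gene. None of the 122 passed an adjusted p of 0.05 in limma, against 8 of 18193 genes in all (0.044%). At an unadjusted p under 0.05, 21 were higher and 2 lower in hIAPP_Tg islets, which is 17.2% and 1.64% of the list, where 5.02% and 3.45% of all genes were. The median difference was 0.033 against 0 over all genes. The lists were chosen with earlier results of these data known, so these shares are descriptions. Of the macrophage markers, 75% were higher at the same unadjusted threshold, and their part in these shares was not tested. The Src family kinases Lyn and Lck are among the entries not analysed here.

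Receptors that pair with these adaptors were listed together with lectins whose own tail carries a single-tyrosine form of the motif (26 measured). This list held 6 genes higher at an unadjusted p under 0.05 in limma and 0 lower, and 21 of the 26 lay under the array median. Of the genes higher, Clec7a and Clec1b are such lectins. Trem2, the lipid and apolipoprotein receptor that signals through Tyrobp, read 6.9, 7.0 and 6.8 in wild-type and 7.8, 7.5 and 7.5 in hIAPP_Tg islets. It did not overlap and differed by 0.70 (SE 0.10; limma adjusted p = 0.258), but its second probe set, at 6.1 to 6.6, differed by -0.067. Clec7a, the beta-glucan receptor Dectin-1, whose own tail carries a single-tyrosine form of the motif, read 5.4, 5.3 and 5.4 against 6.3, 5.7 and 6.2 (difference 0.70, SE 0.16; limma adjusted p = 0.449). Itgb2, the beta chain of leukocyte integrins, differed by 0.70 as well (SE 0.17; limma adjusted p = 0.471). Its integrin partner Itgam lay at 4.20 and 4.37 and differed by 0.17. Clec5a and Clec4d, at 3.80 to 4.70 with Clec1b in both genotypes, were the other 3 that were higher at the unadjusted threshold.

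Other receptors for immunoglobulin (11 measured) and the ITAM chains of T and B cell receptors (6 measured) held 0 genes past an unadjusted p of 0.05 in either direction and 0 past the adjusted one in limma. Their median differences were -0.033 and 0.017. Fcgrt, the neonatal Fc receptor, differed by -0.033 and Trim21, the antibody receptor of the cytosol, by -0.033 too. The ITAM chains Cd79a and Cd3e differed by 0.033 each.

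Around Syk, more genes were higher than lower. Of 36 measured effectors, 10 were higher and 1 lower at an unadjusted p under 0.05. Blnk, a linker between Syk and phospholipase C gamma, read 5.5, 5.3 and 5.2 in wild-type and 6.0, 6.0 and 5.9 in hIAPP_Tg islets, without overlap (difference 0.63, SE 0.090; limma adjusted p = 0.222). Fyb, an adaptor for integrin activation, differed by 0.73 and 0.67 on its 2 probe sets, and Nckap1l, the blood cell subunit of the actin-regulating WAVE complex, by 0.60 and 0.30 on its own. Neither passed (limma adjusted p = 0.419 and 0.377 for the brighter probe sets). The phospholipases went apart, with Plcg2, the form of myeloid and B cells, higher by 0.37 and Plcg1, the widely made form, lower, with a difference of -0.23 on its brightest probe set and of 0.033 and -0.20 on the others (limma adjusted p = 0.471 for Plcg2 and 0.552 for the brightest of Plcg1).

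Among kinases of the Src family and their regulators (9 measured), Ptprc, the CD45 phosphatase that keeps these kinases ready, was the 1 gene higher at an unadjusted p under 0.05. It read 7.1, 6.5 and 6.6 against 7.2, 7.6 and 7.6, a difference of 0.73 (SE 0.19; limma adjusted p = 0.502), with wild-type array 1 highest of its group as for Fcgr3. Its second probe set, under the array median, overlapped and differed by 0.10. The inhibitory side (34 measured) held 4 genes higher and 1 lower, with a median of 0. Inpp5d, the lipid phosphatase SHIP1 that Fcgr2b recruits, differed by 0.23 on its brighter probe set and by -0.033 on the other, and Ptpn6, the tyrosine phosphatase SHP-1, by -0.067 and 0.033. On their brightest probe sets Lair1, a collagen receptor with ITIMs, differed by 0.37 and Sla, a Src-like adaptor that dampens receptor signals, by 0.23. The adjusted p in limma was 0.552 for these 2 and for Inpp5d. The other probe sets overlapped, with differences of 0.17 and 0.033 for Lair1 and of 0.10, -0.067 and 0.17 for Sla. The fourth gene higher was Milr1, a mast cell inhibitory receptor, with a difference of 0.20, and the gene lower was Pecam1, an adhesion receptor of endothelium with ITIMs, with a difference of -0.27.

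**Figure D5:**
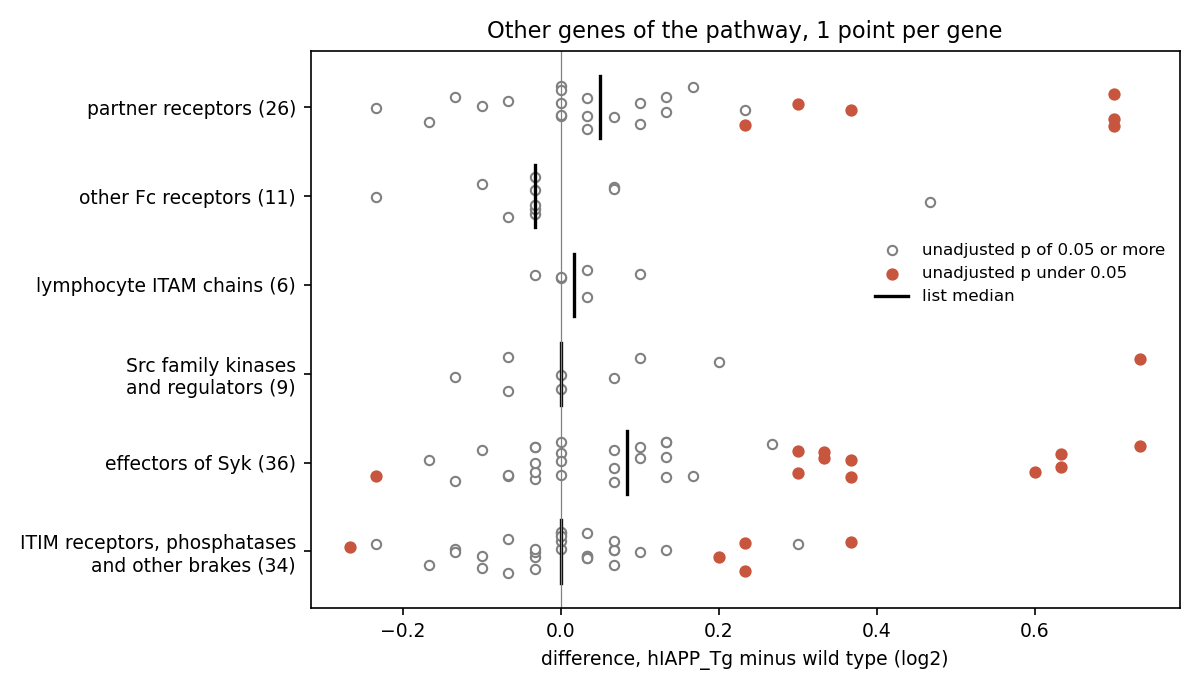
Difference between the genotypes (log2) of each pathway gene that is not a member, 1 point per gene, in 6 lists with their medians as bars. Filled points have an unadjusted p under 0.05 in limma, and the 21 on the right and 2 on the left include Trem2, Clec7a, Itgb2, Ptprc, Fyb, Blnk and Nckap1l near 0.6 to 0.73.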

How the data were processed

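Islet RNA of 3 wild-type and 3 hIAPP_Tg mice, grouped by the sample titles, was hybridized to Affymetrix arrays. The deposited values are log2 expression, which the authors summarized by RMA; the submitters' processing notes name affy, with no version. RMA gives all arrays a like distribution, and differences near its floor and ceiling are compressed. The values, 2.9 to 15.1, carry 1 decimal. Precision is limited by the number of arrays, 3 per genotype.

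Of 45101 probe sets 64 controls were left out. The platform annotation, checked through Entrez numbers against RefSeq genes (GRCm38.p6, names and gene order only), gave 34945 probe sets 1 symbol, 932 several and 9160 none. Promoters were matched by symbol for 7 of the 8 genes, all but Tyrobp.

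All 45037 probe sets were fitted with limma 3.58.1 in R 4.3.3 (lmFit, eBayes, two-sided, no covariate, Benjamini-Hochberg, threshold 0.05), checked on simulated data. Per gene the probe set of highest mean counted. Named pathway genes were up to 3 per list and direction by smallest p among those without overlap at an unadjusted p under 0.05, plus Trem2, Clec7a, Itgb2, Lyn, Ptpn6 and Inpp5d where measured. A further item of the rule is not reported here. Clec5a, Clec4d, Clec1b, Itgam, Fcgrt, Trim21, Cd79a, Cd3e, Plcg2, Milr1 and Pecam1, and the marker genes Spi1, Cd14, Mrc1, Cd163, Fcer1a, Csf3r, H2-Ab1, H2-Aa, H2-Eb1 and Cd74, were named after their values were seen. The first 3 markers of each cell type are given where measured. The 8 genes most like Tyrobp were taken by Pearson's r. The members and lists were chosen with earlier results of these data known. Alternatives were quantile normalization, median centring, a filter on dim probe sets, an intensity trend, a robust prior, array weights, no moderation, averaged probe sets, each array left out and, added after seeing the data, an acinar covariate. Figures used matplotlib 3.10.9 in Python 3.11.15.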

Additional observations from a re-analysis of the deposited data

How the results depend on the processing

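The median difference of the 16 member probe sets (0.22) was 0.14 to 0.33 over the 11 settings tried and 0.14 to 0.25 without single arrays. Since this comparison helped to choose the genes, a median that stays above 0 supports nothing. Median centring could not change it, as every array had a median of 5.7. The count of member probe sets higher without overlap (7) was 7 to 8 without single arrays. It was 4 with the filter on dim probe sets, which keeps only 7 of the 16. The share over all probe sets was not counted in these settings, so nothing is read from these counts. Differences per gene were followed on the probe set of highest mean or, in 1 setting, on averaged probe sets. For Tyrobp, Fcgr3, Fcgr2b, Fcgr1, Fcgr4 and Syk they stayed above 0 in each setting that kept them. Averaging took Syk from 0.37 to 0.10, and single probe sets of Syk and Fcgr2b differed by 0 or less. The differences of Fcer1g and Hcst changed sign between settings.

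The array-wide count of 13 was 30 with quantile normalization, 51 with a robust prior, 26 with array weights, 1 without moderation, 3 with the acinar covariate and 1 to 4 without single arrays. The 1 member among them, Tyrobp, was not called without moderation, with the acinar covariate or without any 1 array (0 called each time). Pathway genes higher at an unadjusted p (21) were 13 with the filter on dim probe sets and 17 to 22 without single arrays. Those lower (2) were 1 with that filter, 5 with a robust prior, 5 with array weights, 1 without moderation, 1 with the acinar covariate, 6 with averaged probe sets and 1 to 5 without single arrays. Fewer probe sets or arrays enter the filtered and left-out fits. Why the counts moved was not tested in any setting. No paired analysis was possible because the genotypes share no replicate numbers.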
